A study of Mus musculus with 2 samples.

Results

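Skeletal muscle fibre genes were followed in inguinal white fat, the subcutaneous depot of the mouse groin. The set held 36 genes of the contractile apparatus, calcium handling and energy supply of muscle fibres, chosen by name and matched by Ensembl identifier. All 36 were among the 37315 genes listed. The entacapone group was 1 library from the white fat of C57BL/6 male mice, 23 weeks old, with obesity induced by a high-fat diet and treated with entacapone. The vehicle group was 1 library from mice of the same strain, sex, age and diet that received vehicle. Entacapone inhibits catechol-O-methyltransferase and is taken against Parkinson disease. Dose, duration and how many mice each library came from were not given in the sources used here.

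Each group had 1 library, so no value below has a replicate error and no test was made. Every difference is one between 2 libraries. The entacapone library held 12979673 and the vehicle library 13620056 counted reads. Levels are in CPM, each count being divided by the effective library size and multiplied by 1000000, and ratios are entacapone over vehicle with an exact 95% interval, which covers counting error only. A gene was counted as higher or lower where it differed at least 2-fold and its interval excluded a ratio of 1. It was called measured where its mean over both libraries reached 1 CPM. Over all 13361 measured genes, the median log2 ratio (pseudocount 0.5 CPM) was 0.00.

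Muscle fibres contract when calcium, released from the sarcoplasmic reticulum, binds troponin on the thin filament and lets myosin heads pull on actin. Slow fibres, which are oxidative and resist fatigue, and fast fibres carry different gene copies of the same proteins, so that slow and fast forms of myosin, troponin and the myosin light chains tell the fibre kinds apart. Fat cells do not build sarcomeres, while skeletal muscle lies next to this depot. Slow members here were Myh7, Tnnc1, Tnni1, Tnnt1, Myl2 and Myl3. A further 14 members were typically fast, 11 are made in fibres of every kind, 2 are developmental myosins, and Mybpc1, Myoz2 and Casq2 were treated as slow by extension.

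The regulatory DNA next to the starts of Myh7, the member with the highest ratio, and of Tnnc1, another slow gene, is shown. Myl2, Tnni1 and Myl3 had higher ratios than Tnnc1, but their DNA is not shown. The DNA at Myh4 is shown for the main fast myosin, and that of Casq2 for the 1 member that was lower. Each is a RefSeq window on GRCm38.p6 of 300 bases, from 250 before to 50 after the start, read 5′ to 3′ on the gene's strand. Capitals mark matches on either strand to the MCAT core CATTCC, the MEF2 motif, the CArG motif and TATAAA. In Myh4 a TATAAA match on the opposite strand overlaps the MEF2 match. Their positions are chr14:54994577-54994876 on the minus strand for Myh7 (1 of 2 windows, at the 5′ end in GENCODE), chr14:31208062-31208361 on the plus strand for Tnnc1, chr11:67237562-67237861 on the plus strand for Myh4 and chr3:102086165-102086464 on the plus strand for Casq2.
Myh7: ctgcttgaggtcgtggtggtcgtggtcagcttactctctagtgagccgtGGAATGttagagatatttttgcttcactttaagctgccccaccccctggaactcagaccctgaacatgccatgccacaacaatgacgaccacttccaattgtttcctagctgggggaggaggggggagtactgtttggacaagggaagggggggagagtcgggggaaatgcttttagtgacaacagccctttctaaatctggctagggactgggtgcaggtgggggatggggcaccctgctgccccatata
Tnnc1: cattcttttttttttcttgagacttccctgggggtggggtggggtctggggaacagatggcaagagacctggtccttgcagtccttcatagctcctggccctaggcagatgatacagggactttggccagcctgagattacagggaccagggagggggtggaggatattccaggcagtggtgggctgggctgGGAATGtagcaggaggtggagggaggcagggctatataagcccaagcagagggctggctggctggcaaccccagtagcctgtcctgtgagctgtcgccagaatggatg
Myh4: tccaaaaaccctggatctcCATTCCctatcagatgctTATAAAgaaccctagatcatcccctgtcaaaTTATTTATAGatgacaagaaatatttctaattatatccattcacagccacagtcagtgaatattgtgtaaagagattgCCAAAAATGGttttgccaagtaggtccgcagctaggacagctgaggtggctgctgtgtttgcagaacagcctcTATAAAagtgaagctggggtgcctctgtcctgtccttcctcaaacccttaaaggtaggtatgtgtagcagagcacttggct
Casq2: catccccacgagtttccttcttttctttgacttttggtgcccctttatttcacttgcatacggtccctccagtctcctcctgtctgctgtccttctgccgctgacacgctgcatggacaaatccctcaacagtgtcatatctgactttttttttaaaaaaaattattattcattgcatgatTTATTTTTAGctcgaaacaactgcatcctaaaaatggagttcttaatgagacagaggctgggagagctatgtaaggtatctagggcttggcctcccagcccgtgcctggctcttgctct

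Windows on chromosome 18, where Myot lies, were left out of all counts here. The rest held windows for 28 members (35 windows). The 9 slow windows came from 6 genes, and some overlap. The RefSeq starts of Myl2, Tnni1 and Myl3 lie 7762 to 21817 bases from the 5′ ends of these genes in GENCODE. The MCAT core, a site for TEAD factors, stood in 3 of 9 windows of slow members (genes Myh7, Tnnc1 and Myl3) and in 4 of 11 windows of fast members, against 14.7% of all 32851 windows. The MEF2 motif stood in 0 of 9 slow and 3 of 11 fast windows, against 3.19% of all windows. The CArG motif, the binding site of serum response factor, was in 1 slow and 1 fast window, against 1.63% of all. E-boxes (CANNTG), which myogenic factors bind, were in 9 of 9 slow and 8 of 11 fast windows, against 72.3% of all. These are matches of letters only, and a window without a match says nothing about the factor.

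Nearly all fibre genes stood higher in the entacapone library, and the slow genes together by the largest ratio of the fibre classes. All 36 members together held 35315 reads in the entacapone and 24189 reads in the vehicle library, which was 0.272% and 0.178% of the counted reads. Their summed level was 2759 CPM against 1751 CPM, a ratio of 1.58 (1.55 to 1.60). The slow genes together had 335 reads against 63, a ratio of 5.74 (4.37 to 7.64), and the fast genes 19186 against 12462, a ratio of 1.66 (1.62 to 1.70). In this bulk tissue, more fibre material and more RNA per fibre cannot be told apart.

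Of the 36 members, 31 were measured, and 15 of these were higher and 1 was lower at 2-fold. Over all measured genes 1.66% were higher and 3.50% lower by the same rule. Beyond counting error at any size, 28 members were higher and 1 was lower, where 20.2% of all measured genes were higher and 21.1% lower. Their median log2 ratio was 0.98. These counts describe genes that passed a level limit, and Tnnc1, Tnni1 and Myl2 passed it only through the entacapone library, Casq2 only through the vehicle library. Of the others, Myl3, Myoz2 and Myh8 had reads but fell under the limit, and Tnnc2 and Myh3 were listed at 0 in both libraries. With no limit, 17 members were higher and 1 was lower, where 1.59% of the 20578 genes with a read were higher and 3.09% lower.

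**Figure D1:**
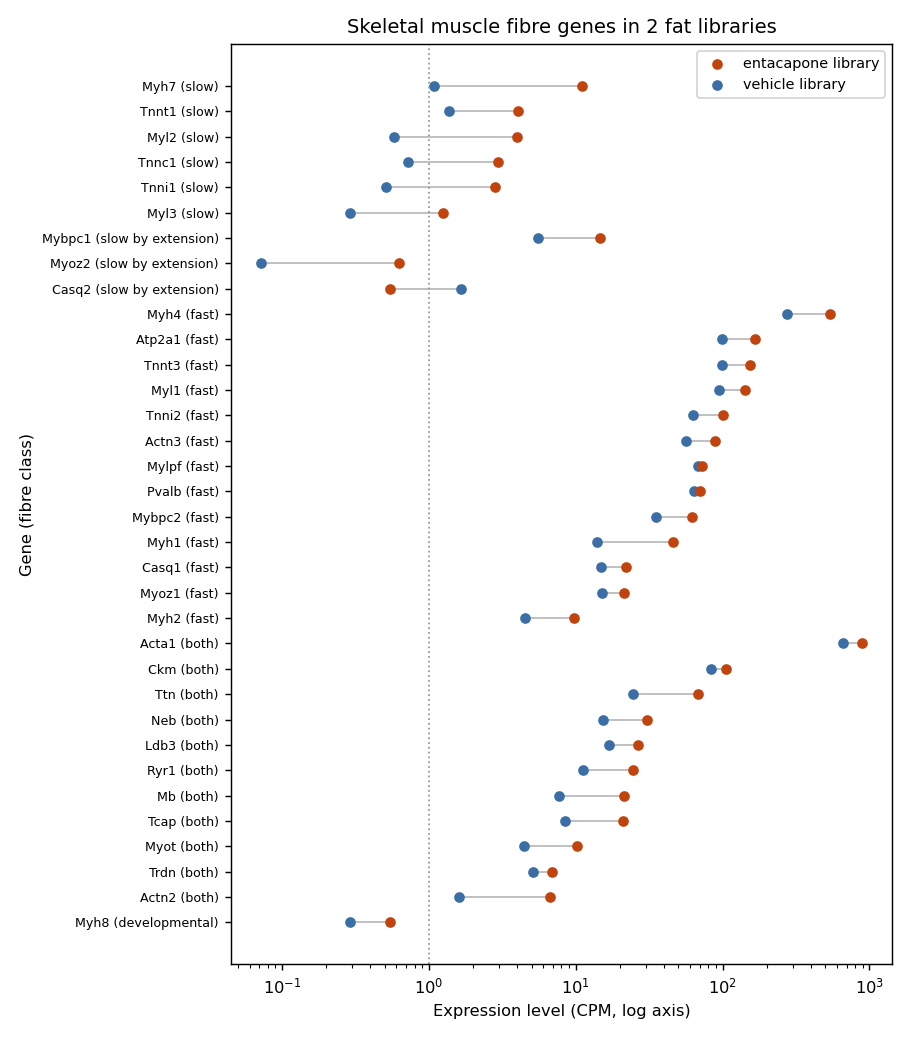
Level of each fibre gene with a read in either library, in CPM on a log axis, grouped by fibre class; red points are the entacapone library, blue points the vehicle library, and the dotted line is 1 CPM. The entacapone point lies right of the vehicle point for every gene drawn except Casq2, and the slow genes lie between 1.25 and 11.1 CPM in the entacapone library.

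Myh7, the slow myosin heavy chain (chromosome 14, 54970684 to 54994626, GRCm38), had 142 reads in the entacapone library and 15 in the vehicle library, or 11.1 CPM against 1.09 CPM. Its log2 ratio of 3.35 (2.58 to 4.23) was the highest of the members. Myl2, the slow regulatory light chain, had 51 reads against 8 (log2 2.78, 1.70 to 4.07). Myl3, the slow essential light chain, had 16 reads against 4 (log2 2.11, 0.48 to 4.15). The intervals of the light chains are wide, but each excludes a ratio of 1.

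The slow troponin subunits followed. Tnni1, the slow inhibitory subunit, had 36 reads in the entacapone library against 7 in the vehicle library (log2 2.47, 1.28 to 3.89). Tnnc1, the calcium-binding subunit of slow and cardiac muscle, had 38 against 10 (log2 2.04, 1.004 to 3.21), and Tnnt1, the slow tropomyosin-binding subunit, had 52 against 19 (log2 1.56, 0.78 to 2.40). All 6 slow genes were thus higher beyond counting error and at least 2-fold, although no vehicle value exceeded 19 reads. Among the 20578 genes with a read, 1.59% were higher by this rule. The median log2 ratio of the 6 slow genes, with a pseudocount of 0.5 CPM, was 1.61. Without Myh7, the other slow genes summed to 193 reads against 48, a ratio of 4.34 (3.15 to 6.09).

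Of the genes that are slow by extension, 1 moved the other way. Mybpc1, slow myosin-binding protein C, had 186 reads in the entacapone and 77 in the vehicle library (log2 1.38, 0.99 to 1.78). Myoz2, a Z-disc protein of slow and cardiac fibres, had 8 reads against 1 (log2 3.11, 0.21 to 8.58). Casq2, the calsequestrin of slow and cardiac muscle, had 7 reads against 23 and was the single member lower (log2 -1.61, -3.07 to -0.34). The direction of Casq2 was thus opposite to that of all slow genes, on 30 reads in all.

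**Figure D2:**
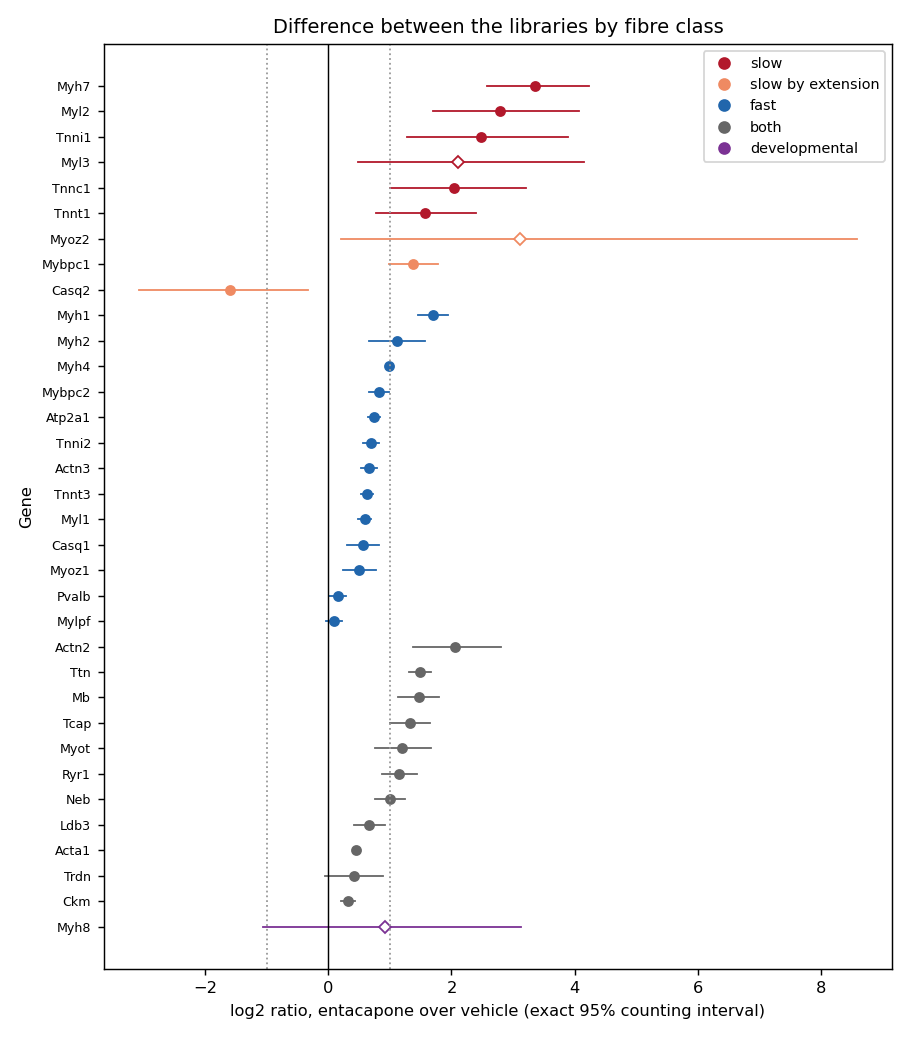
Log2 ratio of entacapone over vehicle for each fibre gene with a read, by fibre class, with exact 95% counting intervals; open diamonds are genes under 1 CPM on average, and dotted lines mark 2-fold. Slow genes lie at 1.56 to 3.35, fast genes at 0.09 to 1.70, and Casq2 alone lies left of 0.

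The fast genes were far more abundant and differed less. Among the heavy chains, which form the thick filament and lie side by side on chromosome 11, Myh4 (67238029 to 67260446), the IIb form of the fastest fibres, had 6930 reads in the entacapone and 3770 in the vehicle library, or 541 CPM against 273 CPM. Its log2 ratio of 0.99 (0.93 to 1.05) lay just under the 2-fold limit. Myh1, the IIx form, had 584 against 194 reads (log2 1.70, 1.46 to 1.94), and Myh2, the IIa form, 124 against 62 (log2 1.11, 0.66 to 1.57). Of the 13 measured fast genes, Myh1 and Myh2 were the 2 that reached 2-fold, where 1.66% of all measured genes were higher at 2-fold. The median log2 ratio of the measured fast genes was 0.66.

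The fast light chains and troponins were higher by smaller amounts, or not at all. Tnnt3, the fast tropomyosin-binding troponin, stood at 154 CPM in the entacapone library against 99.5 CPM in the vehicle library (log2 0.63, 0.53 to 0.73), and Tnni2, the fast inhibitory subunit, at 101 CPM against 62.5 CPM (log2 0.69, 0.57 to 0.82). Myl1, the fast essential light chain, stood at 143 CPM against 95.3 CPM. Mylpf, the fast regulatory light chain, had 932 reads against 947 and was the 1 measured fast gene within counting error (log2 0.09, -0.04 to 0.22). Pvalb, the calcium buffer parvalbumin of the fastest fibres, was close to it with 903 reads against 879 (log2 0.15, 0.01 to 0.28). The ratios of the fast genes thus spread from near 1 for Mylpf to 3.25 for Myh1, beyond their counting intervals.

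Tnnc2, the fast calcium-binding troponin subunit (chromosome 2, 164777161 to 164779967), was listed at 0 reads in both libraries. Its troponin partners Tnni2 and Tnnt3 had 1292 and 1965 reads in the entacapone library and 864 and 1375 in the vehicle library. In the GENCODE M21 annotation, 74.0% of the exon bases of Tnnc2 also lie under exons of Ube2c, which had 44 reads against 81. How reads under more than 1 gene were counted was not given in the sources used here, so no level of Tnnc2 is drawn from the 0. The remaining fast genes lay in between. Atp2a1, the calcium pump of fast fibres, was at log2 0.74 (0.64 to 0.84), Mybpc2, fast myosin-binding protein C, at 0.82 (0.65 to 0.99), Actn3, the fast-fibre actinin, at 0.66 (0.53 to 0.80), Casq1, the main calsequestrin, at 0.56 (0.30 to 0.83) and Myoz1, a fast Z-disc protein, at 0.50 (0.23 to 0.77).

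The fibre make-up was read from shares within each library, which do not depend on the scaling between libraries. Of the reads of the adult heavy chains Myh1, Myh2, Myh4 and Myh7, Myh7 took 1.83% in the entacapone library (142 of 7780, exact 95% interval 1.54 to 2.15%) and 0.371% in the vehicle library (15 of 4041, 0.208 to 0.611%). The Myh1 share was 7.51% (6.93 to 8.11%) against 4.80% (4.16 to 5.51%), and the Myh2 share was 1.59% (1.33 to 1.90%) against 1.53% (1.18 to 1.96%). Myh4 filled the rest, with 89.1% (88.4 to 89.8%) against 93.3% (92.5 to 94.0%). In both libraries the IIb form thus made up most of the heavy chain reads, and the slow and IIx shares were larger in the entacapone library. Per kilobase of exon, the Myh7 share was 1.29% against 0.261%.

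Slow and fast partners of the same protein gave the same direction in most pairs. Tnni1 took 2.71% of the Tnni1 and Tnni2 reads in the entacapone library (1.91 to 3.73%) and 0.804% in the vehicle library (0.324 to 1.65%). Tnnt1 took 2.58% of the Tnnt1 and Tnnt3 reads against 1.36%, with a ratio of odds of 1.92 (1.11 to 3.45). Mybpc1 took 19.0% of the Mybpc1 and Mybpc2 reads (16.6 to 21.6%) against 13.7% (11.0 to 16.8%). For Myoz2 with Myoz1, 2.87% against 0.481%, the ratio of odds had an interval that held 1 (0.806 to 272). Casq2 with Casq1 ran the other way, at 2.42% (0.979 to 4.93%) against 10.0% (6.47 to 14.7%). The pair Tnnc1 and Tnnc2 gave no share, since Tnnc2 was listed at 0.

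Over the slow and fast members, without those slow by extension, the 6 slow genes took 1.72% of the reads in the entacapone library (335 of 19521, 1.54 to 1.91%). In the vehicle library they took 0.503% (63 of 12525, 0.387 to 0.643%), a ratio of odds of 3.45 (2.63 to 4.60). With the heavy chains left out it was 2.94 (2.13 to 4.12). The light chain pairs, added after the values were seen, gave Myl2 a share of 5.19% against 0.838% beside Mylpf, and Myl3 a share of 0.865% (0.495 to 1.40%) against 0.303% (0.0826 to 0.773%) beside Myl1. For Myl3 the ratio of odds, 2.87, had an interval that held 1 (0.924 to 11.8). The slow share was a small part of the fibre reads in either library.

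**Figure D3:**
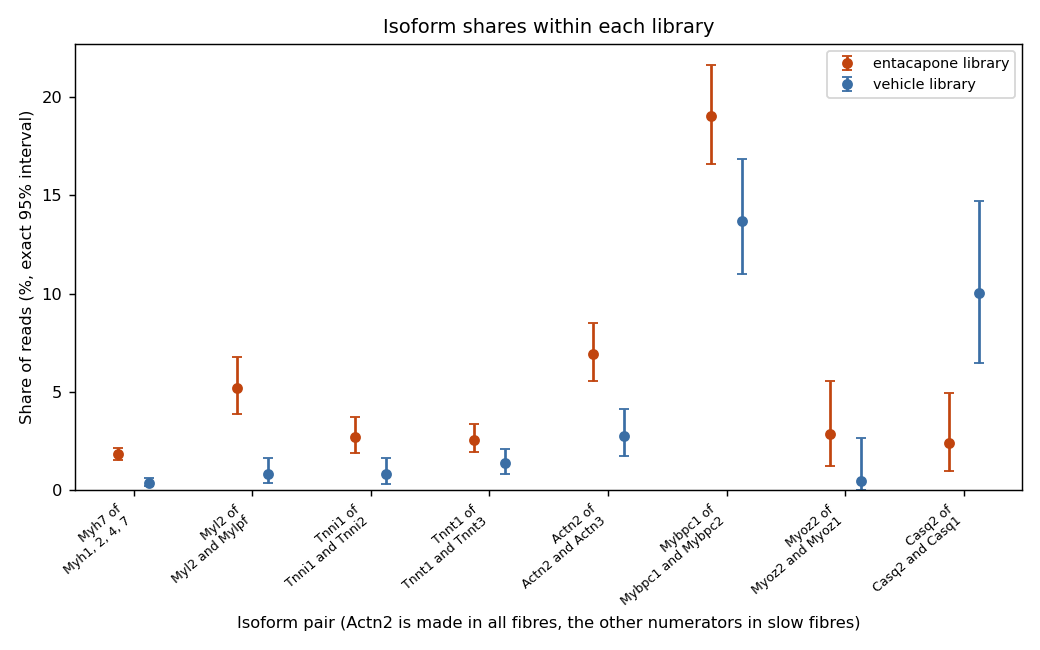
Share of reads taken by 1 isoform among the isoforms of the same protein, in percent with exact 95% intervals, in the entacapone library (red, left of each pair) and the vehicle library (blue). The share is higher in the entacapone library in 7 of the 8 comparisons drawn and lower for Casq2. Of these, Myl2 with Mylpf was added after the values were seen. Myl3 with Myl1, added likewise, is not drawn, and the interval of its ratio of odds held 1. That of Myoz2 with Myoz1 also held 1, and Actn2 is made in all fibres.

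Genes that all fibres use also differed unevenly. Acta1, skeletal actin and the most abundant member per kilobase of exon (584 against 429 CPM per kilobase), had 11477 reads in the entacapone and 9094 in the vehicle library, a log2 ratio of only 0.45 (0.41 to 0.49). Ckm, muscle creatine kinase, was at 105 CPM against 83.6 CPM (log2 0.33, 0.21 to 0.44). Mb, the oxygen store myoglobin, which is richest in oxidative fibres, stood at 21.2 CPM against 7.67 CPM (log2 1.46, 1.14 to 1.80). The oxygen-binding gene thus differed more than actin or creatine kinase, with intervals that do not meet.

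The giant and Z-disc proteins were mostly at or above 2-fold. Ttn, the elastic spring titin, had 875 reads in the entacapone library against 337 in the vehicle library (log2 1.49, 1.30 to 1.67), and Neb, the thin filament ruler nebulin, had 394 against 212 (log2 1.004, 0.76 to 1.25). Actn2, the actinin of all fibres, had 85 against 22 (log2 2.06, 1.37 to 2.81), and its share of the Actn2 and Actn3 reads was 6.92% (5.56 to 8.48%) against 2.75% (1.73 to 4.13%). Tcap, the titin cap at the Z-disc, was at log2 1.32 (1.004 to 1.65), Myot, the Z-disc protein myotilin, at 1.20 (0.75 to 1.67) and Ldb3, which binds actinin there, at 0.67 (0.42 to 0.92). Neb sat at the limit, and fell under it with total counts or DESeq2 size factors.

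At the calcium release site, Ryr1, the release channel of the sarcoplasmic reticulum, had 316 reads in the entacapone and 154 in the vehicle library (log2 1.15, 0.86 to 1.43). Trdn, triadin, which links this channel to calsequestrin, had 88 against 71 and lay within counting error (log2 0.42, -0.05 to 0.89). Of the developmental myosins, Myh8, the perinatal form, had 7 reads against 4, and Myh3, the embryonic form, was listed at 0, where 3 counts would be 0.234 CPM in the entacapone library and 0.217 CPM in that of vehicle. No difference in either could be seen at this depth.

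Part of the heavy chain sequence is shared between gene copies. Of windows of 1 read length (101 bases) along the coding transcript, 9.26% of Myh1, 8.91% of Myh2 and 3.74% of Myh4 recur exactly in another of the 7 skeletal and cardiac heavy chains compared. For Myh7 this was 11.1%. Reads in such windows cannot be assigned to 1 copy. No such window was shared between the slow and fast forms of the troponins, actinins or regulatory light chains. Antisense genes lie over 13.3% of the Myh7 exon bases, and 31.9% of the Mb exon bases lie under other genes, and the library kit does not mark the strand.

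Other muscle genes, from lists chosen with earlier results of these data known, differed from list to list, and their counts are read against the 20.2% higher and 21.1% lower beyond counting error among all measured genes. Of 39 measured further sarcomere and Z-disc genes, 23 lay above and 3 below a ratio of 1 beyond counting error (median log2 ratio 0.59). Xirp1, an actin-binding protein of muscle, was highest at 2.23 (1.47 to 3.05) with Ankrd2, a stretch-responsive protein abundant in slow muscle, at 1.89 (0.63 to 3.35). Dmd, dystrophin, which links the fibre's cytoskeleton to its membrane, was lower with 136 reads in the entacapone and 228 in the vehicle library (-0.64, -0.95 to -0.32).

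Of 18 muscle energy genes, 13 were higher and 1 was lower beyond counting error (median 0.54). Ckmt2, the mitochondrial creatine kinase of muscle, was highest at 1.31 (0.68 to 1.96), followed by Art1 at 1.18 (0.36 to 2.05). Gpd1, a glycerol phosphate dehydrogenase that fat also makes in quantity, was lowest at -0.35 (-0.38 to -0.31), with Adssl1 at 0.05 (-0.25 to 0.35). Of 13 measured excitation and calcium genes, 4 were higher and 1 was lower beyond counting error (median 0.40), where 20.2% and 21.1% of all measured genes were, so that the higher count lay near the background. They ran from Sypl2 at 1.47 (0.75 to 2.23) and Jph2, which ties the surface membrane to the reticulum, at 0.84 (0.48 to 1.21) down to Cacna2d1 at -0.07 (-0.32 to 0.18) and Jph1 at -0.50 (-0.79 to -0.21).

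Muscle stem cell and junction genes were near the detection limit. Of 22 myogenic regulator genes 10 were measured, and beyond counting error 2 of these were higher and 2 lower (median 0.01). These counts equal the background of 20.2% higher and 21.1% lower among all measured genes, as near as 10 genes allow. Myf6, the myogenic factor of mature fibres, had 43 reads in the entacapone and 9 in the vehicle library (log2 2.37, 1.31 to 3.59), and Tbx15 was at 0.46 (0.18 to 0.74). Mstn, the growth inhibitor myostatin, was at -0.95 (-2.14 to 0.14), and Sox6, a repressor of slow genes in fast fibres, was lower at -0.64 (-0.93 to -0.34). The stem cell genes Pax7 and Myf5 were listed at 0 in both libraries. Of 12 neuromuscular junction genes 4 were measured, with 1 higher and 0 lower beyond counting error.

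Heart and slow skeletal muscle share Myh7, Tnnc1, Myl2, Myl3, Casq2 and Myoz2, so cardiac genes were read beside them. Of 14 cardiac genes, Myl7, Tnnt2, Nppa, Nppb, Tbx20 and Nkx2-5 were listed at 0 in both libraries, Myh6 had 2 reads against 1, Mybpc3 had 0 against 2 and Actc1 had 7 against 0. The 3 measured were Tnni3, with 11 reads against 32, Ryr2, with 140 against 243, and Myl4, with 483 against 549. Cardiac genes summed to 50.6 CPM in the entacapone library against 60.5 CPM in the vehicle library. Most of either sum came from Myl4, at 37.7 CPM against 39.7 CPM, and Ryr2, at 10.9 CPM against 17.6 CPM. Of 10 smooth muscle genes 9 were measured, with 2 higher and 2 lower beyond counting error. Among all measured genes 20.2% were higher and 21.1% lower by this rule. The smooth muscle genes summed to 1037 CPM in the entacapone library against 1070 CPM in the vehicle library. Of the measured smooth muscle genes, Synm (0.21) and Cnn1 (0.20) were highest, and Actg2 (-0.43) and Mylk (-0.24) lowest.

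**Figure D4:**
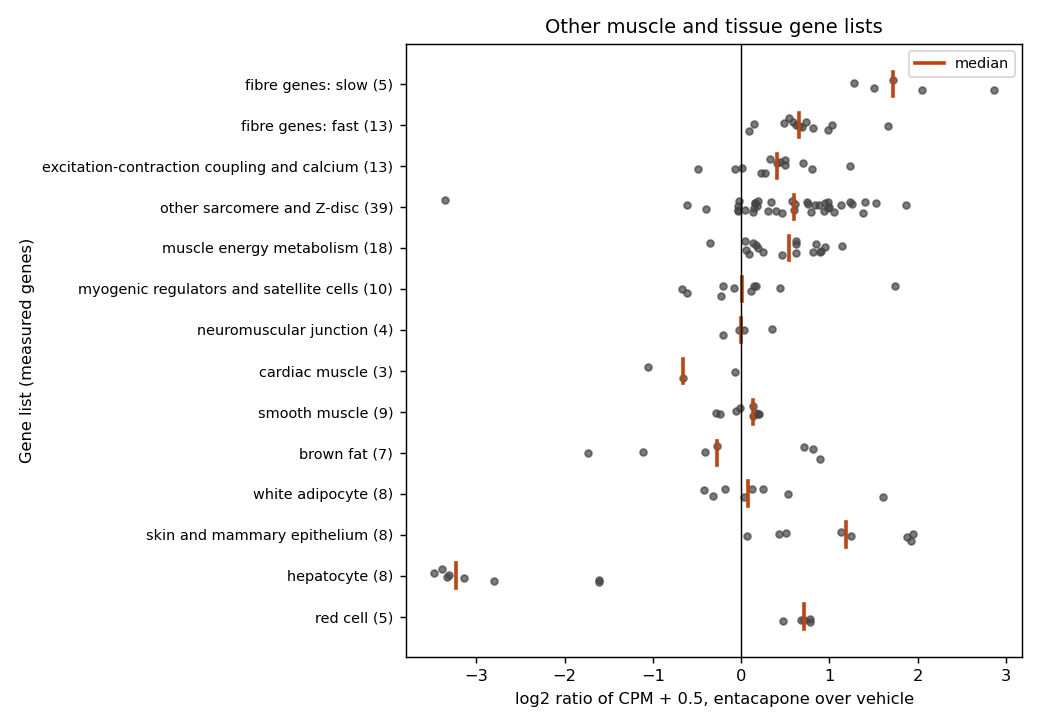
Log2 ratio of CPM + 0.5, entacapone over vehicle, for each measured gene of the slow and fast fibre genes and of the other lists, with the number measured in brackets and the list median as a red bar. Slow genes have a median of 1.72, fast genes of 0.66, smooth muscle genes of 0.13 and hepatocyte genes of -3.23. The slow median leaves out Myl3, and Tnnc1, Tnni1 and Myl2 passed the level limit only through the entacapone library. Over all 6 slow genes the median is 1.61.

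Other tissue markers moved in the same 2 libraries, and their part in the fibre results was not tested. Their counts are read against the 20.2% higher and 21.1% lower beyond counting error among all measured genes. Skin and mammary epithelium genes (8 of 10 measured, with Wap at 0, and 5 higher and 0 lower beyond counting error) summed to 55.6 CPM in the entacapone library against 18.8 CPM in the vehicle library. Red cell genes (5 of 5 higher) summed to 467 CPM against 283 CPM, and hepatocyte genes (8 of 8 lower) to 81.7 CPM against 354 CPM. In the epithelium list Krt1 (3.75) and Krt5 (2.19) had the highest and Krt10 (0.08) and Krt18 (0.56) the lowest log2 ratios. In the red cell list these were Hbb-bt (0.80) and Hba-a2 (0.79), and Alas2 (0.51) and Hba-a1 (0.68), and in the hepatocyte list Alb (-1.61) and Serpina1a (-1.83), and Fabp1 (-3.95) and Gc (-3.81).

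The labelled tissue was checked against 8 white adipocyte genes, all of them measured, which summed to 35452 CPM in the entacapone library against 30262 CPM in the vehicle library. Beyond counting error 5 were higher and 3 lower, from Cfd (log2 1.61) and Retn (0.54) down to Pparg (-0.32) and Lep (-0.42). Among all measured genes 20.2% were higher and 21.1% lower by this rule. Genes with so many reads met it even at small ratios, as Lipe did at log2 0.03. Of 7 measured brown fat genes, 3 were higher and 4 lower by the same rule. Cidea (0.90) and Cox8b (0.84) were at the top and Elovl3 (-1.76) and Ucp1 (-2.38) at the bottom. Cox8b is also made in muscle. The 36 fibre genes, at 2759 CPM against 1751 CPM, thus made up far less of either library than these 8 fat cell genes.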

How the data were processed

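Poly(A) RNA from white fat was sequenced as 1 library per group. The values the authors deposited are raw counts of reads for each Ensembl gene. The submitters' processing notes name TopHat2 2.1.1, HTSeq 0.6.0 and the build mm10; the annotation release and the treatment of reads under several genes were not given in the sources used here. Symbols, positions and merged exon lengths came from GENCODE M21 (GRCm38), matching 35449 of 37315 genes; the others held 0.188% of the entacapone and 0.181% of the vehicle reads.

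CPM used effective library sizes from edgeR 4.0.16 (TMM). For ratio intervals, exact Clopper-Pearson limits on the share of a gene's reads from the entacapone library were converted to ratios; share intervals were exact binomial, and intervals of ratios of odds exact conditional (scipy 1.17.1). They cover counting error only, and the reads carry no molecular identifiers. List medians used a pseudocount of 0.5 CPM. The members, gene lists and alternatives were chosen with earlier results of these data known. All members were named; of each other list with at least 5 measured genes, the 2 highest and 2 lowest, of which 1 is not reported here. Genes named beyond this, and the light chain pairs, were chosen after their values were seen. DESeq2 1.42.0 size factors, other scalings, limits and pseudocounts were alternatives.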

Additional observations from a re-analysis of the deposited data

How the results depend on the processing

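No paired analysis was possible because each group holds 1 library. Under DESeq2 size factors, total counts, upper-quartile scaling and TMM without muscle genes, 135 of 136 values of single members stayed within their own counting interval and 0 changed sign; the exception was Acta1 with total counts (0.41). Members counted as higher numbered 14 to 16, with Neb lost or Myh4 gained. In place of 15 at 2-fold, 23 members were higher at 1.5-fold, 6 at 3-fold and 28 at any size beyond counting error. Over all measured genes 1.66% were higher at 2-fold and 20.2% at any size. The shares of all genes at 1.5-fold and 3-fold were not taken, so the 23 and 6 have no background. The 1 lower member, Casq2, dropped out at a minimum of 5 CPM (0 lower). With a pseudocount of 2 CPM the slow median was 0.94 and its difference from the fast median 0.29, against 1.72 and 1.06. The larger pseudocount shrinks low genes. The 1.72 and 1.06 rest on slow genes of which Tnnc1, Tnni1 and Myl2 passed the level limit only through the entacapone library. With no limit, and so with Myl3, the slow median was 1.61 and the difference 0.95. The ratio of summed CPM gave 0.66 for the members in place of the median of 0.98. The Myh7 share in the entacapone library was 1.29% per kilobase of exon. Only 1 slow gene, Myh7, reached 5 CPM on average, so the slow values rest on few reads, above all in the vehicle library.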

Other observations

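Dystrophin and its associated proteins were read as a list, chosen after the values were seen. Of 17 measured, beyond counting error 2 were higher and 7 lower (median log2 ratio -0.06). By the same rule, 20.2% of all measured genes were higher and 21.1% lower. Sgca, the alpha-sarcoglycan of striated muscle, was higher with 28 reads in the entacapone and 11 in the vehicle library (log2 1.46, 0.41 to 2.61), as was Trim72, a membrane repair protein of muscle (0.90, 0.10 to 1.73). Sgcb was at -0.15 (-0.30 to -0.01), Sgcd at -0.18 (-0.35 to -0.02) and Sgce at 0.07 (-0.08 to 0.21). Not all genes of muscle in this list were higher. Dmd was at -0.64 (-0.95 to -0.32), Dysf at 0.08 (-0.06 to 0.22), and Cav3, which was not measured, had 9 reads in each library. Lama2, the laminin chain around muscle and nerve, was lower at 61.3 CPM against 100 CPM (-0.71, -0.84 to -0.58).

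Among the 26 measured members outside the slow 6, longer genes tended to have higher ratios: across these genes, which share both libraries and are not independent, Spearman's rho between exon length and log2 ratio was 0.40 (Pearson's r with log2 length 0.31). Across all 13254 measured genes with a length rho was -0.06. Their ratios had a pseudocount of 0.5 CPM, and those of the members did not. Short members differed widely among themselves, with Mylpf (1062 bases) at 0.09 and Tcap (948 bases) at 1.32.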
